A study of Mus musculus with 2 samples.

Results

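A set of 8 genes of regulatory T cells were followed through single cells of mouse lung adenocarcinoma. They were chosen by name: the transcription factor genes Foxp3, Ikzf2 and Ikzf4, the surface protein genes Il2ra, Izumo1r and Lrrc32, and the cytokine genes Il10 and Ebi3. All 8 of 8 were among the 17790 genes of the deposited count table. The receptor gene Il1rl1 was followed beside them, since it encodes ST2, the receptor of IL-33 that the title of the study names.

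The study deposited 2 libraries of 3' transcript ends from microdissected lung tumours of C57BL/6 mice, which magnetic beads parted into CD45-negative and CD45-positive (leukocyte) cells. Both groups share strain, tissue and disease and differ in the fraction only. The names of both libraries begin with LucOS, a label not explained in the sources used here. Beyond it, these sources do not state the genotype, treatment, age or number of the mice, or the tumour model. The CD45-negative library held 3957 cells with 40873786 unique molecular identifiers (UMI, counted transcripts), and the CD45-positive library held 11432 cells with 47477407 UMI. Of the cell barcodes, 57 occurred in both libraries. With 1 library for each fraction, no difference was tested and no p-value is given; every interval (95%) covers counting error only.

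Regulatory T cells restrain other lymphocytes and are held in their state by FOXP3. They carry the high-affinity receptor of interleukin 2, bind and release latent TGF-beta at their surface, and secrete inhibitory cytokines. In lung and other tissues a subset bears ST2 and answers to IL-33, an alarm signal released from epithelium and stroma.

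The members lie on 7 chromosomes. In the GENCODE annotation of GRCm38, the same assembly as mm10, Foxp3 lies at chrX:7573644-7595245, Ikzf2 at chr1:69531214-69687245, Ikzf4 at chr10:128630843-128645991 and Il2ra at chr2:11642807-11693193. Izumo1r lies at chr9:14885814-14903949, Lrrc32 at chr7:98489283-98502181, Il10 at chr1:131019845-131024974 and Ebi3 at chr17:55952640-55957022. All 8 are annotated as protein coding. Foxp3 overlaps 3 genes of the other strand, among them Ppp1r3f and Ccdc22, and Flicr on its own strand. The sources used here do not say whether counting used the strand, so reads of such overlaps cannot be told apart from those of Foxp3.

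RefSeq promoters (GRCm38.p6, 250 bases before to 50 bases after a transcript start, 5′ to 3′ on the gene's strand) were found for 4 of the 8 members: Foxp3, Il2ra, Izumo1r and Ebi3. These 4 are shown since the other members had no entry. Co-detection in T cells over expectation, as given below, was 3.43 for Foxp3 with Il2ra and 3.60 for Foxp3 with Izumo1r. It was 2.37 for Il2ra with Izumo1r and 1.71 for Foxp3 with Ebi3. The interval of Foxp3 with Ebi3 (0.93 to 2.86) overlaps those of Foxp3 with Il2ra and of Il2ra with Izumo1r. It lies below that of Foxp3 with Izumo1r. Letters of STAT (TTCNNNGAA), RUNX (TGTGGT), forkhead (TGTTTAC), AP-1 (TGANTCA) and NFAT (GGAAAA) were searched on both strands, and matches are in capitals. The Foxp3 entry at chrX:7580233-7580532 (plus strand), 1 of 2 entries of this gene, is
Foxp3: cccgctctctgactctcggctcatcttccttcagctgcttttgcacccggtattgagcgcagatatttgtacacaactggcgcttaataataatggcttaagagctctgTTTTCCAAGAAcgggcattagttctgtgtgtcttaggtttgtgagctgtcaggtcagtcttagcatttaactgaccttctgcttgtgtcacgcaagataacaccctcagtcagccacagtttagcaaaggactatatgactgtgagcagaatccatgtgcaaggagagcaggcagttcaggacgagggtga
The entry of Il2ra at chr2:11642542-11642841 (plus strand) is
Il2ra: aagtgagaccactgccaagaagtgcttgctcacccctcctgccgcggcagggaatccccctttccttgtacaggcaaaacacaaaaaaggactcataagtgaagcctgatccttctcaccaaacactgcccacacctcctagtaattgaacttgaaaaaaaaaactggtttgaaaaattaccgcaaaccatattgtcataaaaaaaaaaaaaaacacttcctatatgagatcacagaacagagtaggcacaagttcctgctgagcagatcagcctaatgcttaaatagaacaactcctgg
The entry of Izumo1r at chr9:14903718-14904017 (minus strand) is
Izumo1r: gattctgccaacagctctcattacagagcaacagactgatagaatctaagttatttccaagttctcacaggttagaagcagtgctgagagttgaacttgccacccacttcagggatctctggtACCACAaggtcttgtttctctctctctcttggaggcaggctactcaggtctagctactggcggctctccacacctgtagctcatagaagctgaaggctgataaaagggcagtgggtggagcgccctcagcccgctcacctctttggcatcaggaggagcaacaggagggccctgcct
The entry of Ebi3 at chr17:55952373-55952672 (plus strand) is
Ebi3: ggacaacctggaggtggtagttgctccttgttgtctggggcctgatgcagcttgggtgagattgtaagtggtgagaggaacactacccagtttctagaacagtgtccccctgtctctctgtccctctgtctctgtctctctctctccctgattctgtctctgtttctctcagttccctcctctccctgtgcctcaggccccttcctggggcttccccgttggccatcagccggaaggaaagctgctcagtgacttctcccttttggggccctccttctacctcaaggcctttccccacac

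In the Foxp3 sequence a match to NFAT at position -141 overlapped a match to STAT at position -139, counted from the transcript start. The other Foxp3 entry, at chrX:7579426-7579725, held no match to any of the 5 searched motifs. Izumo1r held a match to RUNX at position -127, and Il2ra and Ebi3 held no match. Among 32544 promoters of this length, STAT letters were found in 8.33%, RUNX in 16.7%, forkhead in 3.66%, AP-1 in 7.79% and NFAT in 23.3%. These matches describe letters and no binding was measured.

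Cells were grouped by the transcripts they held. Of the 7438 cells deposited as immune in the CD45-positive library, 4255 had at least 2 UMI of Cd3d, Cd3e and Cd3g together and are called the T gate. The B gate had at least 5 UMI of Cd79a and Cd79b and was not in the T gate (669 cells); it gives the background, since B cells should lack most of these genes. The T gate is a loose one. Of its cells, 1580 also had a Cd79 UMI, 473 met the B cell limit, 23.8% had at least 5 UMI of a plasma cell marker list and 57.4% at least 5 UMI of an alveolar type 2 (AT2) marker list. The B gate was mixed too: 70.3% of its cells reached this limit for the plasma cell list, 69.4% for the AT2 list and 36.2% for a monocyte list. Of the 3994 barcodes deposited as non-immune in this library, 1274 had at least 2 Cd3 UMI. Of cells with 1 Cd3 UMI, just outside the limit, 23 of 1079 had a Foxp3 UMI, and of those with 2, just inside, 24 of 704. With 4 Cd79 UMI the count was 11 of 295 immune cells and with 5 it was 12 of 252.

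Foxp3, the gene of the lineage-defining forkhead factor, was found in the CD45-positive library only. It had 0 UMI in the CD45-negative library, which allows up to 0.0734 CPM (UMI per 1000000; 3 counts), and 450 UMI (9.48 CPM) among CD45-positive cells, of which the T gate held 68.7%. The Foxp3 level was 19.7 CPM (17.5 to 22.0) in the T gate and 5.31 CPM (2.90 to 8.90) in the B gate, a ratio of 3.71 (2.18 to 6.86). A Foxp3 UMI was seen in 5.73% (5.05 to 6.48%) of T-gate and 2.09% (1.15 to 3.49%) of B-gate cells, at median depths of 3149 and 3581 UMI, and with each cell thinned to 2000 UMI they became 3.44% and 1.18%. The plasma cell gate (253 cells) stood between them at 11.6 CPM (5.55 to 21.3), and its interval overlaps both.

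Ikzf2 encodes Helios, a zinc finger factor of the Ikaros family that marks most thymus-derived regulatory T cells and also activated T cells. It had 132 UMI in the CD45-negative library (3.23 CPM) and 3374 among CD45-positive cells (71.1 CPM). Helios transcripts stood at 148 CPM (142 to 154) in the T gate and 26.1 CPM (20.3 to 33.1) in the B gate, a ratio of 5.67 (4.46 to 7.31). Ikzf2 was not confined to the T gate in these data. The neutrophil gate (115 cells, 23 UMI in 13 cells) reached 74.2 CPM (47.0 to 111). This gate also had 32.3 CPM of Izumo1r, and 15.6% of T-gate cells reached its marker limit. The part of T cells with few Cd3 UMI, or of 2 cells in a droplet, in its level was not tested. In the CD45-negative library, where few leukocytes remain, the deposited Fibroblast class had 13.4 CPM (9.83 to 17.9) and the Ciliated class 11.5 CPM (6.57 to 18.7).

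Ikzf4 encodes Eos, an Ikaros family factor that binds FOXP3 and helps it to silence genes. It had 68 UMI in the CD45-negative and 435 UMI among CD45-positive cells. Ikzf4 stood at 17.6 CPM (15.6 to 19.8) in the T gate and 4.55 CPM (2.35 to 7.94) in the B gate, a ratio of 3.88 (2.18 to 7.59). The group with the highest Ikzf4 level was not the T gate but the mature dendritic cell gate, at 69.7 CPM (31.9 to 132), a value that rests on 9 UMI in 4 of 36 cells (11.1%, 3.11 to 26.1%).

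Among all members, the surface protein genes Il2ra and Izumo1r had the highest ratios to the B gate. Il2ra encodes CD25, the chain that gives the interleukin 2 receptor its high affinity. It had 0 UMI in the CD45-negative and 936 UMI in the CD45-positive library, with 40.5 CPM (37.5 to 43.8) in the T gate, 6.44 CPM (3.75 to 10.3) in the B gate and a ratio of 6.29 (3.90 to 10.9). The mature dendritic cell gate had an overlapping level of 46.5 CPM (17.1 to 101), from 6 UMI. Izumo1r encodes folate receptor 4, known on regulatory and anergic T cells and, as Juno, on the egg. It had 0 UMI in the CD45-negative and 1216 UMI in the CD45-positive library, with 58.4 CPM (54.6 to 62.3) in the T gate, 8.34 CPM (5.22 to 12.6) in the B gate and a ratio of 7.0 (4.60 to 11.2). The neutrophil gate followed at 32.3 CPM (15.5 to 59.3), from 10 UMI.

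Lrrc32 was mainly an endothelial transcript. It encodes GARP, which tethers latent TGF-beta to the surface of activated regulatory T cells, platelets and endothelium. It was the only member with more UMI in the CD45-negative than in the CD45-positive library (862 and 631 UMI). In the deposited Endothelial class it reached 74.8 CPM (69.5 to 80.4) among CD45-negative cells, 40.1% of which had an Lrrc32 UMI. Endothelial cells of the CD45-positive library had 53.4 CPM (48.7 to 58.4). The T gate had 5.86 CPM (4.72 to 7.18), 14.6% of the Lrrc32 UMI of its library, and the B gate 1.89 CPM (0.615 to 4.42), from 5 UMI, so the ratio was 3.09 (1.28 to 9.74).

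The cytokine genes did not stand above the B gate in the T gate. Il10, the gene of an inhibitory cytokine of many leukocytes, had 0 UMI in the CD45-negative and 200 UMI among CD45-positive cells. It stood at 7.26 CPM (5.98 to 8.72) in the T gate and 9.10 CPM (5.83 to 13.5) in the B gate, a ratio of 0.80 (0.51 to 1.30), and 13.9 CPM (7.18 to 24.3) in the plasma cell gate. With a B gate of at least 10 Cd79 UMI the ratio of Il10 was 1.82. The alveolar macrophage gate had less Il10 than either gate, 0.741 CPM (0.0897 to 2.68) from 2 UMI, so the B gate is not an empty background for Il10. Ebi3 encodes the subunit that pairs with Il12a in IL-35 and with Il27 in IL-27. It had 35 UMI in the CD45-negative and 372 UMI in the CD45-positive library, with 9.80 CPM (8.31 to 11.5) in the T gate, 12.9 CPM (8.92 to 18.0) in the B gate and a ratio of 0.76 (0.52 to 1.14). The highest level of Ebi3 was 36.8 CPM (22.5 to 56.8), in the C1q macrophage gate (133 cells, 20 UMI), beside 31.0 CPM (8.45 to 79.4) in the mature dendritic cell gate.

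In all, 6 of the 8 members were at least 2-fold higher in the T gate than in the B gate, and none was at least 2-fold lower. Of 11772 genes with at least 20 UMI, 12.7% were at least 2-fold higher in the T gate and 4.40% at least 2-fold lower. The receptor gene Il1rl1, with 18 UMI in the CD45-negative and 305 UMI in the CD45-positive library, had 12.98 CPM (11.3 to 14.9) in the T gate and 5.31 CPM (2.90 to 8.90) in the B gate, a ratio of 2.45 (1.43 to 4.56). When the 473 cells that met both limits were counted as B gate, a choice made after seeing the data, the ratio of Foxp3 was 2.24, that of Ikzf2 2.73, that of Il2ra 3.18 and that of Izumo1r 2.38, while Lrrc32 was under 2-fold at 1.71.

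**Figure D1:**
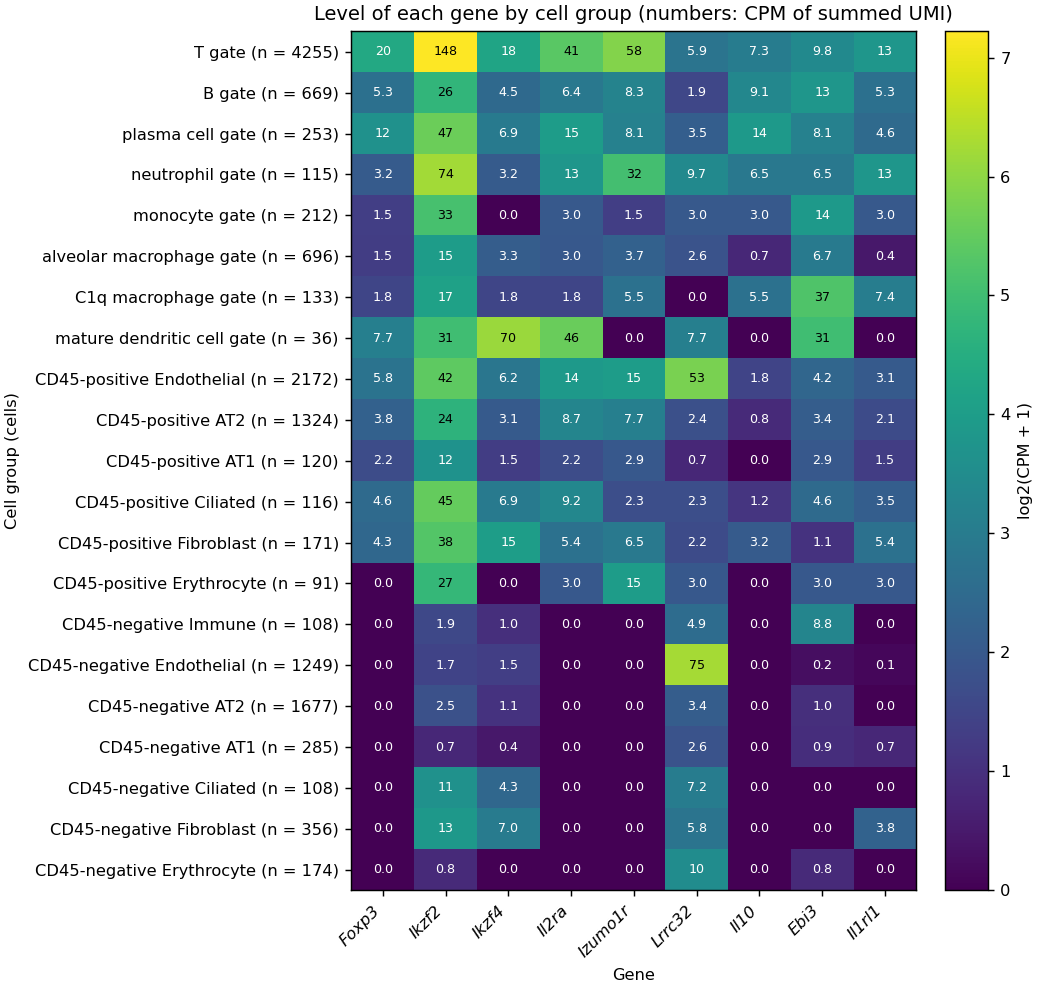
Levels of the 8 members and Il1rl1 (columns) in 21 cell groups (rows, with the number of cells), as CPM of summed UMI printed in each field and as log2(CPM + 1) in colour. Foxp3, Ikzf2, Izumo1r and Il1rl1 were highest in the T gate, Il1rl1 by little (12.98 CPM, beside 12.90 CPM from 4 UMI in the neutrophil gate). Lrrc32 was highest in the Endothelial class of both libraries (74.8 and 53.4 CPM) and Ebi3 in the C1q macrophage gate (36.8 CPM).

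**Figure D2:**
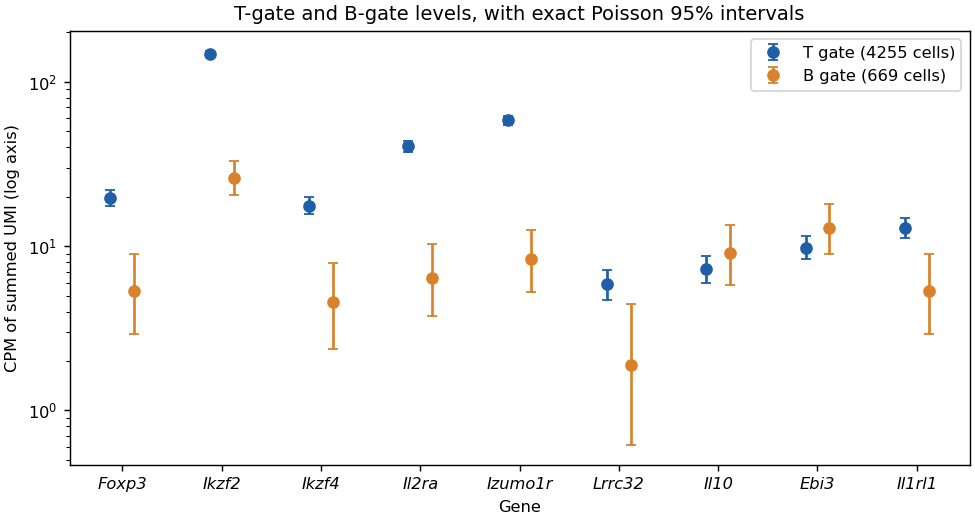
Levels of each gene in the T gate (4255 cells) and the B gate (669 cells) on a log axis, with exact Poisson 95% intervals. The intervals of Il10 and Ebi3 overlap between the gates, and those of the other genes lie apart, Lrrc32 by the least (4.72 and 4.42 CPM).

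Foxp3, Ikzf2, Il2ra and Izumo1r were higher in each range of higher Cd3 UMI, and Ebi3 was not. Over immune cells with 0 to 1, 2, 3 to 4, 5 to 9 and 10 or more Cd3 UMI, Foxp3 had 4.23, 10.9, 15.8, 20.5 and 29.7 CPM. Izumo1r went from 7.53 CPM (6.05 to 9.27) in the lowest to 102 CPM (91.5 to 114) in the highest of these ranges, and Ikzf2 from 32.6 to 221 CPM. Il10 was near 5.08 CPM (3.88 to 6.54) in the lowest range and at 12.4 CPM (8.85 to 16.9) in the highest. Ebi3 had 12.3 CPM (10.4 to 14.4) with 0 to 1 Cd3 UMI and 10.5 CPM (7.29 to 14.7) with 10 or more, and its intervals overlap in all 5 ranges. In barcodes deposited as non-immune in the CD45-positive library, Foxp3 likewise had 9.60 CPM (7.43 to 12.2) where Cd3 reached 2 UMI and 1.91 CPM (1.24 to 2.82) where it did not, so Foxp3 was also counted in barcodes of another class that held T cell transcripts. The part of free RNA and of 2 cells in a droplet in this was not tested.

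**Figure D3:**
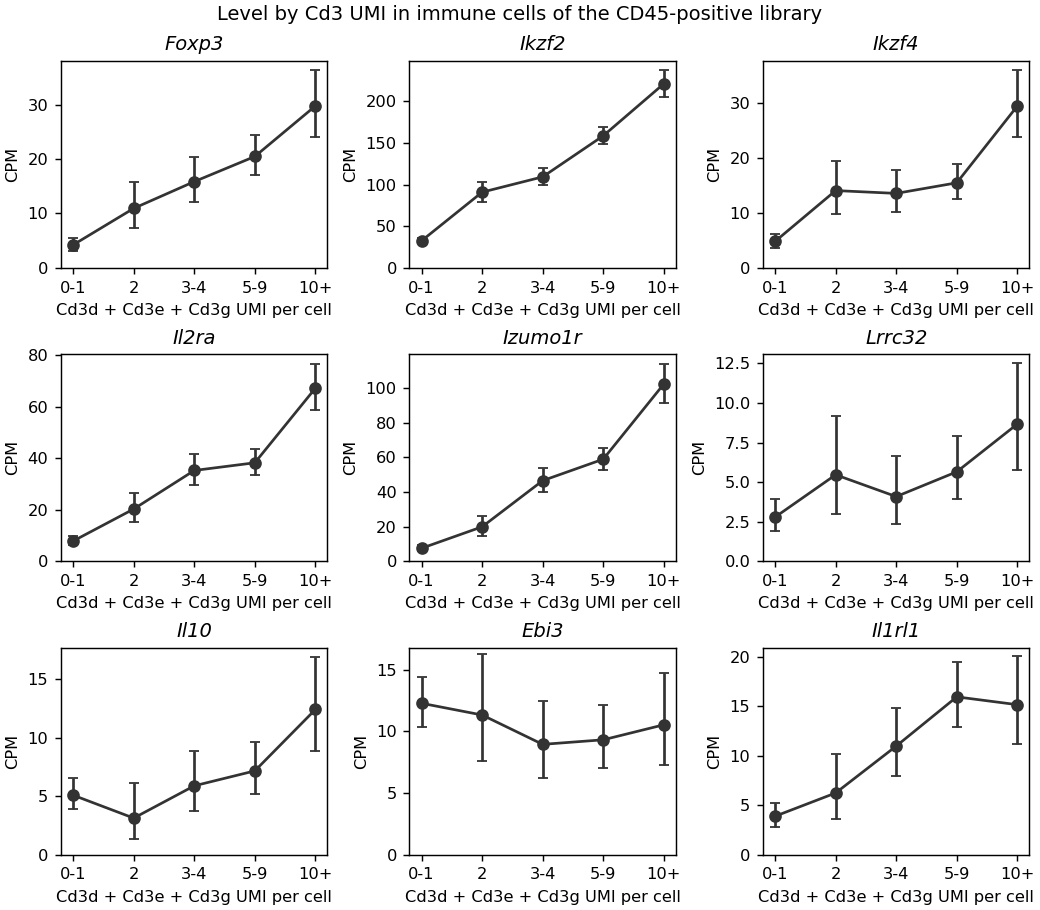
Level of each gene (CPM, linear axes from 0) in immune cells of the CD45-positive library by the sum of Cd3d, Cd3e and Cd3g UMI in the cell (3183, 704, 1136, 1661 and 754 cells), with exact Poisson 95% intervals. Foxp3 goes from 4.23 to 29.7 CPM, while Ebi3 stays between 8.95 and 12.3 CPM.

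Within the T gate the members were found in the same cells more often than their single shares would give. For each pair of the 8 members and Il1rl1, 36 pairs in all, the number of T-gate cells with a UMI of both was divided by the number expected if the 2 genes were independent. The ratio ran from 1.62 (Ikzf2 with Ebi3) to 4.72 (Foxp3 with Lrrc32), with a median of 3.01. The deeper a cell, the more genes it shows, so some excess is general: over 8685 genes seen in at least 80 T-gate cells, the median ratio with Foxp3 was 1.15. Of these genes 1.84% reached 2-fold over expectation with Foxp3, against 6 of the 7 other members, and 1.88% did so with Il1rl1, against 8 of 8 members.

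The highest ratios with Foxp3 were those of Lrrc32, Il1rl1 and Ikzf4. Their intervals overlap those of Il10 (3.92, 2.33 to 6.19) and Izumo1r (3.60, 2.99 to 4.31). A gene seen in many cells, such as Ikzf2 (25.0% of T-gate cells), cannot reach as high a ratio as a rare one. Foxp3 and Lrrc32 were both seen in 23 cells where 4.87 were expected, a ratio of 4.72 (2.99 to 7.07). Foxp3 and Il1rl1 were both seen in 43 cells where 9.40 were expected, a ratio of 4.57 (3.31 to 6.15). Foxp3 and Ikzf4 met in 59 cells where 13.02 were expected, a ratio of 4.53 (3.46 to 5.83). The lowest ratio with Foxp3 was that of Ebi3, which met it in 14 cells where 8.20 were expected, a ratio of 1.71 whose interval (0.93 to 2.86) holds 1. A lower bound above 1 was also seen with Foxp3 in 15.2% of all genes, and it was found for 6 of the 7 other members. With Il1rl1 it was seen in 6.24% of all genes and in 8 of 8 members.

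The ratios kept their range within cells of like depth and Cd3 content. Thinned to 2000 UMI per cell, the 36 ratios ran from 1.57 to 5.44. Expected counts summed over 3 depth classes of equal size gave 1.48 to 4.28, and summed over the ranges of Cd3 UMI, an alternative added after seeing the data, 1.59 to 4.22. The background also held such an excess. Summed over the 36 pairs, the T gate had 2224 cells against 858 expected (2.59) and the B gate had 56 against 18.5 (3.02), a ratio no lower than in the T gate. What differed was the number: at least 3 of the 8 members were seen in 302 of 4255 T-gate cells (7.10%, 6.34 to 7.91%) and in 7 of 669 B-gate cells (1.05%, 0.42 to 2.14%). The most members seen in a cell were 7, in 2 T-gate cells.

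**Figure D4:**
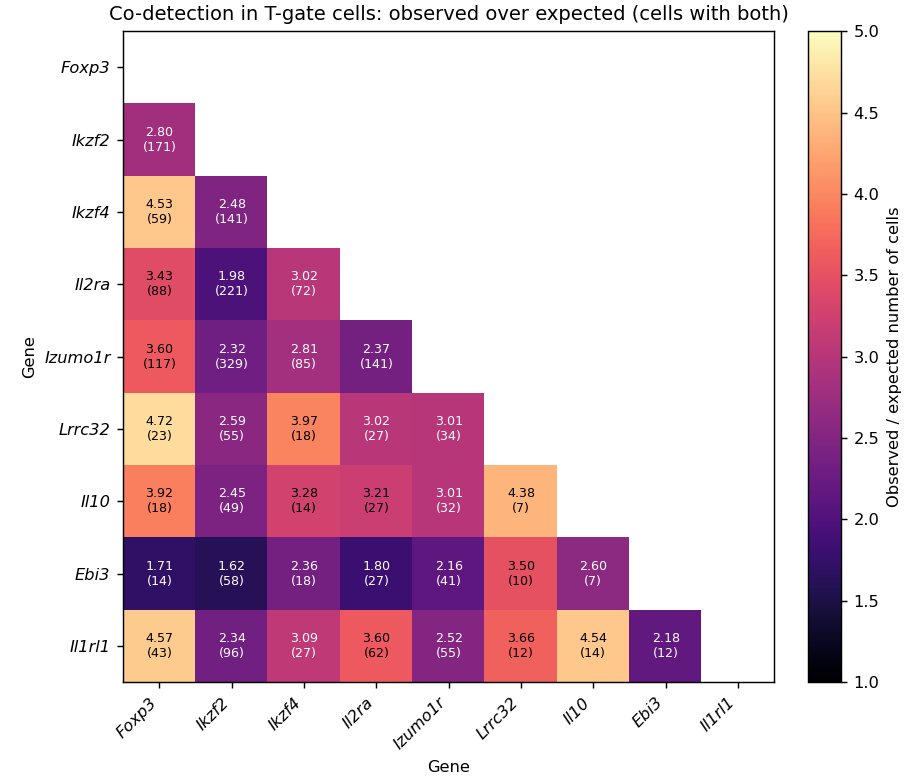
Co-detection of the 8 members and Il1rl1 in 4255 T-gate cells, as the observed over the expected number of cells with a UMI of both genes (colour and upper figure) and the observed number (in brackets). The row of Ebi3 holds the low ratios with Foxp3 (1.71), Ikzf2 (1.62) and Il2ra (1.80), while Foxp3 with Lrrc32, Il1rl1 and Ikzf4 lies between 4.53 and 4.72.

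Seen from the Foxp3 side, most cells with Foxp3 also had Ikzf2, but most cells with Ikzf2 had no Foxp3. Of 244 T-gate cells with a Foxp3 UMI, 70.1% (63.9 to 75.8%) had an Ikzf2 UMI, 47.95% (41.5 to 54.4%) an Izumo1r UMI, 36.1% (30.0 to 42.4%) an Il2ra UMI and 24.2% (18.9 to 30.1%) an Ikzf4 UMI. Among the 4011 T-gate cells without a Foxp3 UMI the shares were 22.3%, 11.2%, 8.95% and 4.19%. Conversely, Foxp3 was seen in 16.1% of the 1065 cells with Ikzf2, in 19.7% of the 447 with Il2ra and in 27.1% of the 85 with Lrrc32. With a median of 3149 UMI per cell, a missing Foxp3 UMI does not show that a cell lacked the transcript.

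In all, 6 of the 7 other members were at least 2-fold higher in T-gate cells with a Foxp3 UMI than in those without, where 3.30% of 11519 genes were (380 genes) and 6.73% were at least 2-fold lower. Among the factors, Ikzf4 had 72.2 and 13.8 CPM, a ratio of 5.24 (3.97 to 6.87), and Ikzf2 had 531 and 121 CPM, a ratio of 4.39 (3.98 to 4.83). Among the surface proteins, Lrrc32 had a ratio of 4.99 (2.99 to 8.04), Il2ra of 4.90 (4.08 to 5.86) and Izumo1r of 4.54 (3.89 to 5.29). Il10, though not above the B gate as a whole, had 27.0 CPM in cells with Foxp3 (28 UMI) and 5.86 CPM in those without, a ratio of 4.60 (2.89 to 7.12). Ebi3 had 17.3 CPM (18 UMI) and 9.27 CPM, a ratio of 1.87 (1.08 to 3.07), under 2-fold.

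Restricting the split to CD4 cells, those with a Cd4 and no Cd8 UMI (42 of 373 with Foxp3), gave lower ratios for all 7 other members. Ikzf4 was then 2.33, Izumo1r 2.39 and Il10 2.08. Ikzf2 was 3.60, Il2ra 4.02, Lrrc32 4.82 and Ebi3 1.56. Over these 373 cells Lrrc32, Il10 and Ebi3 had only 12, 17 and 16 UMI, under the limit of 20 UMI used for counts. With at least 2 Foxp3 UMI as the limit (50 cells), Izumo1r was 2.61 and Il10 2.54, and Ebi3 turned below 1, to 0.92. The comparison group was then all cells with fewer than 2 Foxp3 UMI, so cells with Foxp3 stood in both groups. Without the cells that held at least 5 UMI of a marker list of another leukocyte or endothelium, chosen after seeing the data, Il10 was 2.42. Other markers moved with the split. Cells with Foxp3 had a median depth of 3633 against 3123 UMI and a median of 7 against 5 Cd3 UMI. They had less of the alveolar macrophage list (403 against 987 CPM) and of the C1q macrophage list (58.7 against 297 CPM). They had more of the conventional dendritic cell list (51.0 against 19.9 CPM). An innate lymphoid list measured without Il1rl1 (Gata3, Rora, Il13 and Calca) was also higher in them (262 against 156 CPM). Of these cells, 13.1% against 4.94% had at least 5 UMI of the cycling list (Mki67, Top2a, Stmn1, Birc5). Within 3 depth classes the ratios of the members were 4.41 (Ikzf2), 5.03 (Ikzf4), 4.91 (Il2ra), 4.59 (Izumo1r), 4.81 (Lrrc32), 4.47 (Il10) and 1.78 (Ebi3), and the part of the other markers was not tested.

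**Figure D5:**
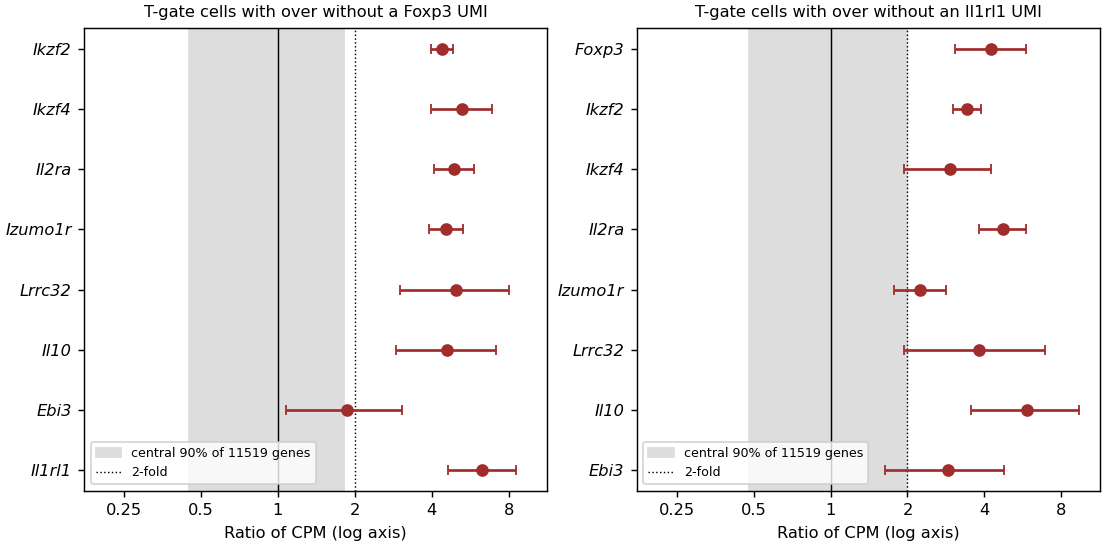
Ratio of CPM (log axis) between T-gate cells with and without a Foxp3 UMI (left, 244 and 4011 cells) and with and without an Il1rl1 UMI (right, 164 and 4091 cells), with exact 95% intervals; the grey band holds the central 90% of 11519 genes. All members but Ebi3 lie beyond 2-fold on the left, and all 8 do on the right, with Izumo1r the lowest (2.25).

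Ranked by the lower bound of this ratio, 5 of the 12 leading genes were members (Il2ra, Ikzf2, Ikzf4, Izumo1r and Lrrc32). The first was Npy, the gene of neuropeptide Y, with 57 UMI in the 244 cells with Foxp3 and 22 UMI in the 4011 without, a ratio of 36.6 (22.0 to 62.9). Il1rl1 was the second, with 60.6 and 9.61 CPM and a ratio of 6.31 (4.61 to 8.55). That ratio was 2.12 for cells with at least 2 against those with fewer than 2 Foxp3 UMI, where 5 cells of the former had Il1rl1. With the B-gate level subtracted it was 12.9. Klrg1, an inhibitory lectin receptor of matured effector and tissue regulatory T cells, had 5.89 (4.37 to 7.87). Tnfrsf4, which encodes the costimulator OX40, had 4.21 (3.81 to 4.64). Cd209d, Ncmap and Neb completed the 12, with 7.31, 4.94 and 5.77 from 15, 35 and 20 UMI in cells with Foxp3.

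Of genes known from the same pathways, those of activated regulatory T cells were often higher in cells with Foxp3. In a list of regulatory T cell effector genes, which holds Il1rl1 and Klrg1, 12 of 27 tested were at least 2-fold higher in cells with Foxp3 and 0 lower, with a median ratio of 1.81 against 1.01 over all genes. Of its most abundant genes, Tnfrsf4 was at 4.21 and Tnfrsf18 (GITR) at 2.65 (2.35 to 2.97), while the costimulator Icos was at 1.83 (1.65 to 2.02) and the actin-capping gene Capg at 1.49 (1.36 to 1.62). Ctla4, the inhibitory receptor that strips ligands from antigen-presenting cells, had 2.82 (2.48 to 3.19), and Areg, an epithelial growth factor gene, 3.56 (2.91 to 4.33).

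The other chains and signal carriers of the interleukin 2 receptor followed Il2ra only in part. Of 11 such genes, 1 was at least 2-fold higher (Jak3, a kinase at the common gamma chain, 2.14, 1.36 to 3.24) and 1 lower, the cytokine gene Il2 itself, with 4 UMI in cells with Foxp3 and 171 in those without (0.33, 0.089 to 0.86). Il2rb was at 1.47 (1.22 to 1.76), Il2rg at 1.31 (1.142 to 1.497), Jak1 at 0.98 (0.84 to 1.13) and the feedback inhibitor Cish at 1.71 (1.39 to 2.08). Of 8 genes around TGF-beta, in which GARP acts, the activating integrin genes Itgb8 (3.85, 2.26 to 6.31) and Itgav (2.75, 2.13 to 3.51) were higher, and Tgfb1 (1.34), Tgfbr1 (1.30), Smad7 (0.86) and Tgfbr2 (0.81) were under 2-fold. The median of this list was 1.32.

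Of the partners of IL-10 and IL-35, 0 of 6 tested genes passed 2-fold in either direction (median 1.15). Its most abundant genes were Il10rb (0.88, 0.62 to 1.21), Nfil3 (1.80, 1.35 to 2.36), Il6st (1.42, 0.96 to 2.03) and Il10ra (0.89, 0.49 to 1.498), the receptor chains and a regulator of Il10. The partner genes of Ebi3, Il12a and Il27, did not reach 20 UMI and were not tested. Of 10 other factor genes, the Ikaros and Foxp families beyond the members with FOXO, RUNX and CtBP genes, 0 passed 2-fold (median 1.03), with Foxp1 at 0.78 (0.63 to 0.94), Ctbp1 at 1.19 (0.97 to 1.44), Ikzf1 at 0.89 (0.71 to 1.12) and Foxo1 at 1.27 (1.01 to 1.58). Ikzf3 (Aiolos) was at 1.47 (1.16 to 1.84), below the 4.39 of Ikzf2 and the 5.24 of Ikzf4. Of 10 genes of naive T cells 1 was at least 2-fold lower (Dapl1, 0.41, 0.21 to 0.75) and 0 higher. The list's median was 0.74, with Klf2 at 0.76 (0.68 to 0.85), Satb1 at 0.72 (0.57 to 0.91), S1pr1 at 0.66 (0.51 to 0.84) and Il7r at 1.0 (0.88 to 1.13).

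Cells with the IL-33 receptor transcript carried the members as well. Il1rl1 was seen in 164 T-gate cells, and 26.2% (19.7 to 33.6%) of these had a Foxp3 UMI against 4.91% (4.27 to 5.62%) of the 4091 others. All 8 of 8 members were at least 2-fold higher in cells with an Il1rl1 UMI, where 4.90% of 11519 genes were, and 5.75% were at least 2-fold lower. In CD4 cells (22 with Il1rl1) 3 members passed, where 9.80% of genes did. With at least 10 Cd3 UMI 5 members passed, where 7.32% of genes did. Lrrc32, Il10 and Ebi3, with 12, 17 and 16 UMI in CD4 cells, were under the limit of 20 UMI and not counted there. The highest ratio of a member was that of Il10, with 35.4 and 6.04 CPM, a ratio of 5.86 (3.54 to 9.34). Il2ra followed with 4.73 (3.81 to 5.83) and Foxp3 with 4.26 (3.06 to 5.82). The lowest were Izumo1r with 2.25 (1.76 to 2.82), Ebi3 with 2.88 (1.63 to 4.77) and Ikzf4 with 2.92 (1.94 to 4.25). Without T-gate cells with a Cd79 UMI the ratio of Il10 was 13.3, and without those holding other markers (chosen after seeing the data) 12.8. In CD4 cells it was 2.06, Izumo1r was 1.30 and Ebi3 had 0 UMI in the cells with Il1rl1. Cells with Il1rl1 had less of the alveolar macrophage list (235 against 979 CPM, with Marco at 0), of the plasma cell list (6234 against 12695 CPM) and of the B cell list (269 against 468 CPM). They had more of the conventional dendritic cell list (58.5 against 20.4 CPM). They also had more of the innate lymphoid list (Gata3, Rora, Il13 and Calca), at 315 against 156 CPM. Of the cells, 4.88% against 0.56% had at least 5 UMI of it. Both lists were also higher in cells with Foxp3, as given above. Gata3, which also stands in the regulatory T cell effector list, had 134 against 60.9 CPM in the Il1rl1 split. The part of cells of other types in the ratios was not tested.

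Among cells without a Foxp3 UMI, 6 of the 7 other members were at least 2-fold higher in those with Il1rl1, where 5.86% of 11397 genes were. In the 121 T-gate cells with Il1rl1 and no Foxp3 UMI, Il10 stood at 40.5 CPM, from 19 UMI in 10 cells. It had 4.72 CPM in the 3890 cells with neither, a ratio of 8.58 (4.87 to 14.5). Il2ra had a ratio of 4.65 (3.51 to 6.07) there, Ikzf2 of 3.64 (3.12 to 4.24), Izumo1r of 2.35 (1.72 to 3.13) and Ebi3 of 1.89 (0.80 to 3.84). Among cells with Foxp3, the 43 with Il1rl1 had 249 CPM of Il2ra against 139 CPM in the 201 without, a ratio of 1.80 (1.25 to 2.55). Ebi3 had 9 UMI in each of these groups, from 5 and 9 cells, or 49.9 and 10.5 CPM, a ratio of 4.76 (1.67 to 13.5). Foxp3 itself (0.87, 0.63 to 1.19), Ikzf2 (1.17, 0.94 to 1.45), Izumo1r (0.77, 0.51 to 1.13) and Il10 (0.79, 0.20 to 2.31, from 4 and 24 UMI) had intervals that hold 1. Areg (2.49, 1.69 to 3.63) and Ctla4 (1.75, 1.34 to 2.27) were higher in the cells with both.

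Among cells without a Foxp3 UMI, 5 of 6 members were likewise at least 2-fold higher in those with the Helios transcript, where 1.47% of 11397 genes were. The 894 T-gate cells with an Ikzf2 and no Foxp3 UMI had 110 CPM of Izumo1r, against 27.3 CPM in the 3117 with neither, a ratio of 4.03 (3.46 to 4.70), and Ikzf4 and Lrrc32 had ratios of 3.97 (2.98 to 5.30) and 4.46 (2.69 to 7.51). The 244 cells with Foxp3 were higher still than these for Il2ra (2.46, 2.003 to 3.02), Ikzf4 (2.27, 1.67 to 3.07) and Izumo1r (1.95, 1.65 to 2.31). Their Ikzf2 level differed by less than counting error (531 and 499 CPM, 1.06, 0.965 to 1.17), though cells of the comparison group were chosen for an Ikzf2 UMI.

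For 5 of the 8 members the level was higher in CD4 than in CD8 cells with an interval above 1, as it was for 8.14% of 10355 genes. In 373 cells with a Cd4 and no Cd8a or Cd8b1 UMI, Foxp3 had 36.5 CPM, against 14.0 CPM in 1821 cells with a Cd8 and no Cd4 UMI, a ratio of 2.61 (1.83 to 3.70). Izumo1r had 116 and 41.2 CPM, a ratio of 2.81 (2.31 to 3.42), Ikzf2 1.93 (1.69 to 2.20), Il10 2.21 (1.17 to 4.04) and Il2ra 1.59 (1.23 to 2.05). The intervals of Lrrc32 (1.70, 0.80 to 3.39), Ikzf4 (1.38, 0.92 to 2.02) and Ebi3 (1.5, 0.80 to 2.68) hold 1. Cd4 was seen rarely, in 22.5% (17.5 to 28.3%) of cells with Foxp3 and 12.2% (11.2 to 13.2%) of those without, and a Cd8 UMI was seen in 34.0% (28.1 to 40.3%) and 47.6% (46.0 to 49.2%). The Foxp3 level of 14.0 CPM in CD8 cells stands beside 5.31 CPM in the B gate, and the part of free RNA in it was not tested.

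Over 21 cell groups with at least 20 cells, each member was set beside the genes whose pattern was most like its own. The measure was Pearson's r of log2(CPM + 1) among 13190 genes with at least 100 UMI, as a description over groups that share 2 libraries. Foxp3 was most like Camk4 (0.94), Il2ra (0.93), Pdcd1 (0.93), Ccr4 (0.90) and Tnfrsf4 (0.90), and Il2ra most like Cd5, Tnfrsf4, Camk4 and Foxp3 (0.96 to 0.93). Ikzf2 was most like Satb1, Camk4, Xcl1, Sit1 and Pdcd1 (0.92 to 0.90), and Izumo1r most like Il17a, Cd160, Dapl1, Nlrc3 and Bcl11b (0.97 to 0.94). Il10 was most like Gpr174, Gm13012, Tespa1, A530040E14Rik and Klra8 (0.87 to 0.86). Ikzf4 had lower values, from Arnt2 (0.88) to Cblb, Tesc, Tmem123 and Klhdc1 (0.81 to 0.78). Lrrc32 was most like Grrp1, Lysmd2, Ccdc184, Myzap and Tmem88 (0.91 to 0.87), and Ebi3 most like Cd86, Myo1g, Aif1, Cd83 and Arl5c (0.97 to 0.93), of which Cd86 and Cd83 are costimulatory and maturation markers of antigen-presenting cells and Aif1 is a macrophage gene.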

How the data were processed

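The values are UMI counts as deposited, whole numbers per gene and cell with no scaling, beside a table that names each cell's library and class. The series' design text states 6000 cells loaded on a channel, reads of 98 base pairs, and Cell Ranger 1.1.0 with mm10 (tool and build also stand in the submitters' processing notes). The CD45-positive library holds more cells than 6000, and the sources used here do not say if channels were pooled. The shallowest cell had 4646 UMI in the CD45-negative and 2204 UMI in the CD45-positive library.

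The members and gene lists were chosen with earlier results of these data known. All deposited cells were kept and doublets were not called. Marker gates needed at least 5 UMI of a list and lay outside the T and B gates. A level is the CPM of UMI summed over cells. Its interval is exact Poisson, that of a share Clopper-Pearson, and that of a ratio exact conditional binomial, each at 95%. Where 1 group had no UMI, 3 counts stood in for it. Thinning took the hypergeometric expectation at 2000 UMI and dropped 0 cells. Genes with at least 20 UMI entered the 2-fold counts. Named genes were the members and Il1rl1, the 12 with the highest lower bound in the Foxp3 comparison, the 5 most like each member, and the 4 most abundant of each list. Ctla4, Areg, Jak3, Il2, Itgb8, Itgav, Ikzf3 and Dapl1 were named after their values were seen, and 1 gene that the rule names is not reported here. Alternatives changed the gates, depth, mitochondrial share, CD4 restriction, detection limit and background subtraction. Software was Python 3.11.15 with scipy 1.17.1, numpy 2.4.6, matplotlib 3.10.9 and pandas 2.3.3.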

Additional observations from a re-analysis of the deposited data

How the results depend on the processing

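No paired analysis was possible because each fraction had 1 library, and no replicate could be left out. The ratio of Foxp3 between the T gate and the B gate ran from 2.24 to 5.73 over 11 alternatives, and the co-detection of Foxp3 with Il1rl1 from 3.69 to 5.02 times expectation over 12. The ratio of Il1rl1 between T cells with and without Foxp3 was 6.31. It was 4.39 with at least 10 Cd3 UMI (an alternative added after seeing the data) and 12.9 with the B-gate level subtracted. Cells with at least 2 against fewer than 2 Foxp3 UMI gave 2.12, and cells with Foxp3 stood in both of these groups. The number of genes at least 2-fold higher with Foxp3 was 380, and it was 1212 with genes of at least 1 UMI and 93 with genes of at least 100 UMI; 4 to 7 members passed. With Il1rl1 the number was 564 (4.90%), and 1360 (8.43%) and 133 (1.62%) under these 2 limits. Of the members, 3 to 8 passed, the 3 in CD4 cells, where 9.80% of genes did and the same members were not counted. The ratio of Il10 between the gates, 0.80, was 1.36 with at least 10 Cd3 UMI and 1.82 with a B gate of at least 10 Cd79 UMI. Other values that turned to the other side of 1 were Ebi3 with at least 2 Foxp3 UMI (0.92), Ebi3 with Il1rl1 in CD4 cells (0), Lrrc32 with Il10 without cells of other markers (0) and Il10 with Ebi3 at 10 or more Cd3 UMI (0.90); the cause was not tested. The low counts of Lrrc32, Il10 and Ebi3 limit their precision, and no value has a check in a further library.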
